A study of Mus musculus with 3 samples.

Results

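These data describe HIF1α peaks that lie at the ends of noncoding genes and away from the ends of protein-coding genes. Of 17289 peaks in the list, 17288 lie on nuclear chromosomes, and 646 of these were selected. A selected peak has its centre within 1 kb of either end of a RefSeq gene that is not protein-coding, on assembly GRCm38.p6 (mm10), and more than 1 kb from the ends of every protein-coding gene. The peaks came from chromatin immunoprecipitation and sequencing (ChIP-seq) of wild-type Black-Swiss mouse embryo hearts at E12.5, with 2 HIF1α pulldown replicates (4 μg of rabbit antibody each) and 1 input without antibody. All 3 libraries were made from chromatin fixed with 1.5% formaldehyde for 10 min and sheared to about 200 bp, with 10 ng of DNA per library. Nothing in the labels says whether the replicates came from separate embryos or pools. The tissue cannot be checked against expression markers, because a peak list holds none.

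The deposited file is 1 merged list, in which each peak has a whole-number score and a number of merged calls, 1 or 2. The score is the authors' own value, its scale is not given, and here it serves only for ranking and filtering peaks of this list. A peak of 1 call does not show which pulldown it came from, and both sets of calls share the input. No value below has a replicate error, the read depth is unknown, and each interval given is an exact 95% Clopper-Pearson interval that covers counting error only. No test between groups was made, since peaks and genes are not replicates.

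HIF1α is the part of the hypoxia-inducible factor whose stability depends on oxygen. When oxygen is low it is no longer degraded, pairs with ARNT and binds DNA at a short core. The core was searched here as ACGTG on one strand and CACGT on the other, and GCGTG was counted only as an alternative. Noncoding genes give RNA that is not translated, and include long noncoding RNAs (lncRNAs), microRNAs (miRNAs), which silence messenger RNAs through a short seed, small nuclear RNAs (snRNAs) of splicing, small nucleolar RNAs (snoRNAs), which guide modification of other RNAs, and transfer RNAs (tRNAs). Mir210 is a well-known hypoxia-induced miRNA gene. Many lncRNA genes start close to a coding gene on the opposite strand, so a single peak can lie near both.

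The sequences of 6 peaks of 2 calls are shown because the RefSeq promoter windows (GRCm38.p6) hold them whole. They are 6 of 17 such peaks, chosen to show some with and without the core letters. Each is the plus strand of the whole peak, and capitals mark ACGTG or its reverse complement CACGT. The first 5 hold the core letters and the last, Chaserr, does not. The peaks are chr7:34234172-34234285 (Gm12762), chr12:86947134-86947239 (Gm32934), chr10:81194477-81194590 (Atcayos), chr1:72243826-72243972 (D230017M19Rik), chr2:148680965-148681067 (Gm46771) and chr7:73558419-73558561 (Chaserr). D230017M19Rik, Gm46771 and Chaserr were chosen after their values were seen. The printed peaks do not follow score order. Among the 17, the peaks at Gm17801 (score 10) and Gm31342 (score 9) scored above that at Atcayos (score 8) but are not printed. Neither of those 2 peaks holds the core letters.
Gm12762: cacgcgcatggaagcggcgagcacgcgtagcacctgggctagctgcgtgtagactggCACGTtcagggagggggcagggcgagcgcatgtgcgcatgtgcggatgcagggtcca
Gm32934: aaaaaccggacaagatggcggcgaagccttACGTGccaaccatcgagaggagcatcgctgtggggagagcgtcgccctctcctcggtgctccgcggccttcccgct
Atcayos: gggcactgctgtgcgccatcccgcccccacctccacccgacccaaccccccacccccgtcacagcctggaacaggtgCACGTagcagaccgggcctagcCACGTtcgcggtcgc
D230017M19Rik: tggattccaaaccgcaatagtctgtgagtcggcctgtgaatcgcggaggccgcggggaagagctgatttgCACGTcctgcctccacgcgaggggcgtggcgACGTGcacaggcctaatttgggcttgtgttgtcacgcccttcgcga
Gm46771: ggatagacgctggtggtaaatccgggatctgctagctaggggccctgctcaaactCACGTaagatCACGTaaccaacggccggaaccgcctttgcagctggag
Chaserr: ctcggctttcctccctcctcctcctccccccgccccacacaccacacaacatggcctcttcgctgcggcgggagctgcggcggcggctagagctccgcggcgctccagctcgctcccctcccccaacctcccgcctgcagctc

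For the miRNA genes the results turn on, mature RNAs follow, 5′ to 3′, with the seed (bases 2 to 8) in capitals, from RefSeq. The first 3 come from genes with a selected peak at their own end, and the others from genes that lie within the span of a lncRNA gene with such a peak, on either strand.
miR-210-3p: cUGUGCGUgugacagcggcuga
miR-210-5p: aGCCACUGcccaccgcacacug
miR-6236: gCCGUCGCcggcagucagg
miR-322-5p: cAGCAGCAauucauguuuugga
miR-503-5p: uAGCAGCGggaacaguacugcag
miR-208b-3p: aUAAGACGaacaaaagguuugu

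Peaks at noncoding ends were of 2 calls in 106 of 646 cases (16.4%, interval 13.6 to 19.5%), against 11.5% of all nuclear peaks. They stood between 2 other locations in the list. At coding gene ends 1032 of 3310 peaks were of 2 calls (31.2%, interval 29.6 to 32.8%), whereas the share was 9.38% (8.62 to 10.2%) inside genes and 4.22% (3.79 to 4.7%) between genes, both over 1 kb from any end. A score of 4 or more was reached by 145 of the 646 (22.4%, interval 19.3 to 25.9%), against 15.4% of all nuclear peaks and 45.8% of those at coding ends. Among peaks that reached this score, the share of 2 calls was 53.8% (45.3 to 62.1%) at noncoding ends and 52.1% (49.6 to 54.7%) at coding ends, and these intervals overlap. At a score of 3 it was 10.5% (6.88 to 15.1%) and 16.8% (14.8 to 18.9%).

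The lowest score in the list, 2, was held by 262 of the selected peaks (40.6%, interval 36.7 to 44.5%), against 56.0% of all nuclear peaks and 13.9% of those at coding ends. A score of 3 was held by 239. Scores of 10 or more were held by 9 peaks (1.39%, interval 0.639 to 2.63%), against 1.19% of all nuclear peaks and 3.38% of those at coding ends. Of these 9 peaks 8 were of 2 calls.

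**Figure D1:**
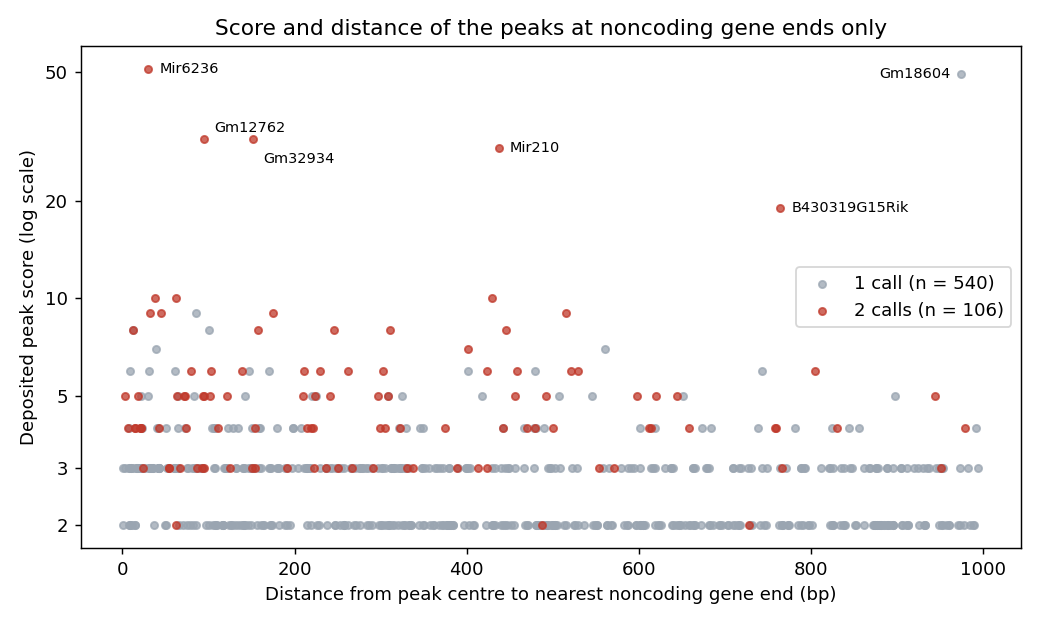
Each point is 1 of the 646 peaks at noncoding gene ends only, with the distance from peak centre to the nearest noncoding gene end (bp) on the x axis and the deposited score on a log y axis, coloured by number of calls. The 6 peaks with scores above 10 are named by nearest gene, and Gm18604 is the only one of them with 1 call.

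The highest score, 51, belonged to a peak of 2 calls whose centre lay inside Mir6236, 30 bp from its end, on chromosome 9 (110281265 to 110281369). The nearest coding end, of Cspg5, was 18.7 kb away. The second, 49, was a peak of 1 call 975 bp from the pseudogene Gm18604 on chromosome 17 (36231250 to 36231350), 24.4 kb from the end of Rpp21. Read mappability was not examined at either locus.

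Several of the next-highest peaks lay near genes of glucose use and collagen modification, a grouping made after the values were seen. The peak at Gm12762 scored 31 with 2 calls, 94.5 bp downstream of the start of that lncRNA, and lay 3.89 kb from the listed start of Gpi1, which encodes the glycolytic enzyme glucose-6-phosphate isomerase. Its nearest coding end was that of Garre1, at 2.48 kb. The peak at B430319G15Rik scored 19 with 2 calls (chromosome 9, 92542053 to 92542156). It lay 764.5 bp downstream of the lncRNA start and inside Plod2, a collagen lysyl hydroxylase gene, 2.47 kb from the nearer end of that gene. Gm35510, an lncRNA gene 35.7 kb from the glucose transporter gene Slc2a1, had a peak of score 10 with 2 calls 38 bp from its start, inside the gene (chromosome 4, 119072965 to 119073113). Gm35730 had a peak of score 10 with 2 calls at 429 bp (chromosome 13, 6647203 to 6647331). This peak lay inside the phosphofructokinase gene Pfkp, 1.79 kb from the nearer end of that gene and 1.5 kb from a listed Pfkp start. Distance does not show which gene, if any, a peak acts on.

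Peaks can lie far from the outer ends of a coding gene and still lie close to one of its listed start sites, because a gene table gives only outer ends. The promoter table placed 38 of the 646 peaks within 1 kb of a coding start. The table does not list every start, and the 20 selected peaks on chromosome 18 were not placed against it, so the others below may include more such peaks. Of these, 12 (31.6%, interval 17.5 to 48.7%) were of 2 calls, against 94 of the other 608 (15.5%, interval 12.7 to 18.6%). Scores of 4 or more were held by 60.5% of the 38 and 20.1% of the others. The peak at Hk1os, an lncRNA gene antisense to the hexokinase gene Hk1, scored 9 with 2 calls and spanned a listed Hk1 start (chromosome 10, 62340353 to 62340464), although its centre was 39.5 kb from the nearer outer end of Hk1. The peak of score 31 at Gm32934 lay 145.5 bp from a listed start of Cipc, which encodes a protein that interacts with the circadian factor CLOCK. Gm4633 had a peak of score 5 with 2 calls, 116 bp from a start of Cd47, a cell-surface gene. At Gm46771 the score 5 peak of 2 calls printed above lay 104 bp from a start of Gzf1.

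Mir210 carried a 2-call peak of score 29 (chromosome 7, 141221878 to 141221982), centred 437 bp upstream of its hairpin on the minus strand. The nearest coding end was that of Rassf7, at 3.27 kb. In all, 12 peaks had a miRNA gene as their nearest noncoding end, and 5 of the 12 (41.7%, interval 15.2 to 72.3%) were of 2 calls. Besides Mir6236 and Mir210 these were Mir6546 (score 4, inside the hairpin gene), Mir7240 (score 4, 299 bp) and Mir7671 (score 3, 388.5 bp upstream). Mir203, linked to skin, and Mir204, linked to the eye, each had a peak of score 2 with 1 call, 117 bp upstream and 173 bp downstream. Mir7240, Mir7671, Mir203 and Mir204 are named after their values were seen. None of the 34 mature sequences read for these miRNAs and for those inside lncRNA genes with a selected peak shares a whole seed with another.

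Some lncRNA genes with a selected peak contained a small RNA gene, and the same share over all lncRNA genes was not computed. Of 409 lncRNA genes that were the nearest noncoding gene to a selected peak, 9 held a miRNA or snoRNA gene within their span on either strand, and 4 of the 9 had a peak of 2 calls. They are described here after their values were seen. C430049B03Rik, whose span holds Mir322, Mir503 and Mir351, had a peak of score 6 with 2 calls (chromosome X, 53057278 to 53057379) at 138.5 bp from its end, 2.98 kb upstream of the Mir322 hairpin. Mir322 and Mir503 belong to a group of miRNAs known to restrain the cell cycle. H19, an imprinted lncRNA gene that holds Mir675, had a peak of score 6 with 2 calls at 102.5 bp (chromosome 7, 142578168 to 142578329), 1101.5 bp upstream of the hairpin. Mir1a-1hg, host of the muscle miRNAs Mir1a-1 and Mir133a-2, had a peak of score 3 with 2 calls 87 bp downstream of its start. Gm31251, which overlaps Mir208b on the opposite strand, had one of score 4 with 2 calls, 979 bp from its 3′ end, 28.3 kb from that hairpin and 9.4 kb from the end of Myh7, a cardiac myosin gene.

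The nearest noncoding end belonged to a lncRNA for 429 of the 646 peaks, a pseudogene for 145, a snRNA for 32, a tRNA for 14, a miRNA for 12 and a snoRNA for 10. There were also 3 peaks at genes of other RNA and 1 at a T cell receptor segment, which encodes part of a receptor although its biotype is not protein-coding. The 646 peaks had 624 different nearest genes, of which 22 had 2 peaks. The share of 2 calls was 20.3% (interval 16.6 to 24.4%) at lncRNAs, 21.9% (9.28 to 40.0%) at snRNAs, 7.14% (0.181 to 33.9%) at tRNAs and 2.76% (0.757 to 6.91%) at pseudogenes. Intervals for tRNA, miRNA and snRNA peaks are wide. The interval of pseudogenes lies below that of lncRNAs.

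**Figure D2:**
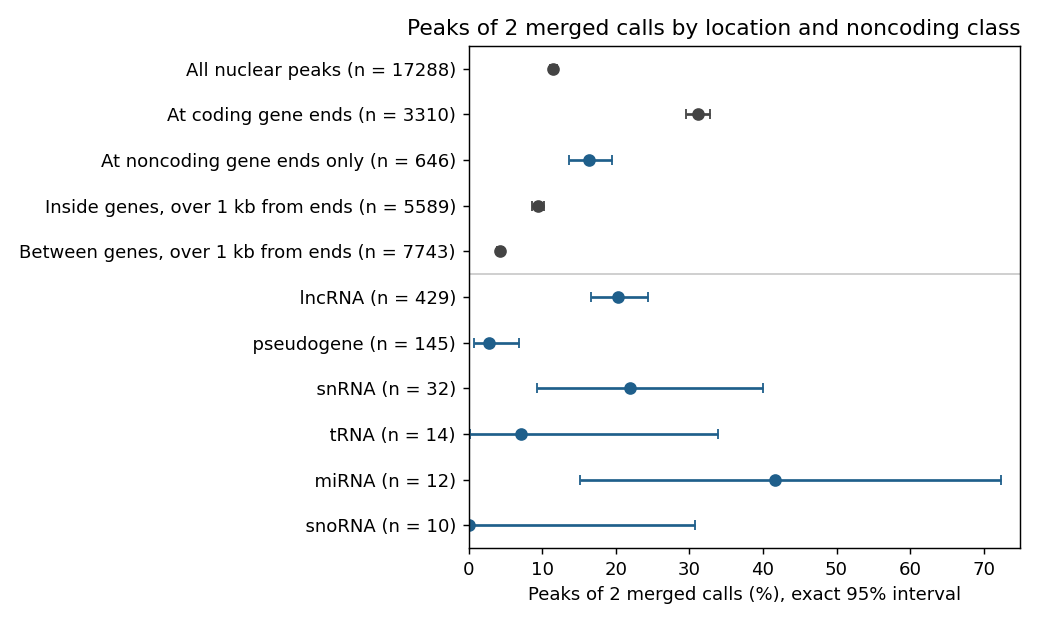
Points are the share of peaks (%, x axis) that were of 2 calls, with exact 95% intervals, for locations in the list (grey, and the noncoding-end peaks in blue) and for classes of nearest noncoding gene (blue, below the line). Noncoding-end peaks had 16.4%, between 31.2% at coding ends and 9.38% inside genes, and pseudogene peaks had the lowest share among classes with any 2-call peak, 2.76%.

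Among other lncRNAs, Gm31342 scored 9 with 2 calls at 44.5 bp upstream of its start. Atcayos scored 8 with 2 calls, 157.5 bp upstream of its start and 1.34 kb from the end of the kinase gene Dapk3. Scores of 8 with 2 calls were also held by Gm8273 (246 bp), Gm51805 (311 bp, inside a coding gene and 22.1 kb from the nearest end, of Tet1) and Gm41853 (445.5 bp, 9.53 kb from the lipid desaturase gene Scd2). The highest single-call lncRNA peaks were at 5031425E22Rik (score 8, 12 bp) and Gm40371 (score 8, 100 bp).

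The lncRNA genes with a proper name were few. Predicted or clone-based names belonged to 405 of the 429 peaks, of which 19.8% were of 2 calls, and the other 24 had 29.2% (interval 12.6 to 51.1%). Neat1, which builds nuclear paraspeckles, had a peak of score 6 with 2 calls at 459 bp (chromosome 19, 5845881 to 5845997). Chaserr, an lncRNA gene known to restrain its neighbour Chd2, had one of score 5 with 2 calls, 95 bp upstream of its start and 16.7 kb from Chd2. Lockd, beside the cell cycle inhibitor gene Cdkn1b, had a single call of score 7, 561 bp upstream of its start. Chaserr and Lockd are named after their values were seen.

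Against 2.4% of all 27824 noncoding genes (interval 2.23 to 2.59%), 4 lists of noncoding genes had these shares with a selected peak. The hypoxia-linked list had 4 of 29 matched genes (13.8%, interval 3.89 to 31.7%), namely Mir210, H19 and Neat1 with peaks of 2 calls and Trp53cor1, a p53-induced lncRNA gene, with score 2 and 1 call at 766 bp. In the heart and muscle list 0 of 27 genes had one, which allows a share of up to 12.8%. The nearest was Mir1a-1, 3.36 kb from a peak of score 3 with 2 calls. That peak is the selected one at Mir1a-1hg, the host gene described above, which the list does not hold. The count of 0 therefore depends on which genes were listed. For snoRNA hosts and growth-linked genes the count was 3 of 35 (8.57%, interval 1.8 to 23.1%): Snhg7 (score 4, 41 bp), Oip5os1 (score 4, 349 bp) and Snhg17 (score 3, 53 bp), all of 1 call. In that list 4 further genes had a peak within 1 kb that was left out because it also lay near a coding end. They include Gas5, with score 5 and 2 calls, and the other lists had 0 such genes. In the X inactivation and imprinted list the count was 2 of 13 (15.4%, interval 1.92 to 45.4%), H19 and Jpx, an activator of Xist, the latter with score 3 and 1 call at 86 bp. The lists overlap in H19, and they were chosen with results of these data known, so nothing particular to a list is drawn from the counts.

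Peaks at snRNA and tRNA genes lay closest to their gene ends. Of 32 snRNA peaks 18 lay within 200 bp of the end, as did 12 of 14 tRNA peaks, against 129 of 429 at lncRNAs and 28 of 145 at pseudogenes. Both ends of such short genes lie close together, and the part of gene length in these distances was not tested. At miRNA and snoRNA genes, which are also short, 6 of 12 and 4 of 10 peaks lay within 200 bp. Their median distances were 236 and 621 bp, against 93.5 bp at snRNAs, 51.5 bp at tRNAs and 366 bp at lncRNAs. Rnu1a1, of the U1 splicing RNA, had a peak of score 7 with 1 call at 39 bp. Rnu2-10, of the U2 RNA, had one of score 6 with 2 calls at 79.5 bp, and Rnu11, of the minor spliceosome, had one of score 5 with 2 calls at 18.5 bp, inside the gene. Rnu5g, of the U5 RNA, had a peak of score 6 with 1 call at 61 bp. Among genes of U3, a nucleolar RNA that the table classes with snRNAs, Rnu3b3 (94.5 bp) and Rnu3b4 (53.5 bp) had peaks of score 3 with 2 calls, and Rnu3b2 (70 bp) had 1 call of score 2, all chosen after their values were seen.

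Of the 14 peaks with a tRNA gene as their nearest noncoding end, the 1 of 2 calls lay 2.5 bp from n-TRacg5 and scored 5. Counting every tRNA gene within 1 kb of a selected peak, nearest or not, 1.24% of tRNA genes had one of 2 calls. Peaks of 1 call lay at n-TDgtc12 (score 5, 22 bp), n-TEctc13 (score 4, 128 bp) and n-TNgtt14 (score 3, 17 bp). snRNA and tRNA genes occur in near-identical copies, and how reads that fit several copies were counted is not given in the sources used here, so the copy named is uncertain. At snoRNA genes all 10 peaks were of 1 call with scores of 2 or 3 (0 of 10, interval 0 to 30.8%).

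Pseudogenes, copies of genes that have lost their coding function, had 4 peaks of 2 calls among 145. They were 2610005L07Rik (score 9, 31.5 bp), Gm10060 (score 8, 12 bp), Gpx4-ps1 (score 5, 241 bp) and 1810014B01Rik (score 4, 42.5 bp), the last 2 named because their number was small. Gm13726 had a single call of score 9 at 85 bp. Per gene, 1.47% of 10510 pseudogenes had a selected peak (interval 1.24 to 1.71%), compared with 3.39% of 12648 lncRNA genes (3.08 to 3.72%), 3.41% of 997 snRNA genes (2.37 to 4.73%), 5.96% of 403 tRNA genes (3.85 to 8.73%), 1.06% of 1228 miRNA genes (0.565 to 1.8%) and 0.827% of 1330 snoRNA genes (0.414 to 1.48%). With peaks of 2 calls alone the shares were 0.0476% of pseudogenes and 0.727% of lncRNA genes. Neighbouring genes can share 1 peak, so genes are not independent here. Each share is over every gene of its class, including genes beside a coding end, where the rule leaves peaks out. How often each class lies beside coding ends is not given here, so the classes are not strictly comparable.

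Peaks of 2 calls lay closer to noncoding ends than peaks of 1 call did, with median distances of 238.75 and 399 bp. Within 100 bp of the end 31 of 113 peaks were of 2 calls (27.4%, interval 19.5 to 36.6%). From 100 to 250 bp the share was 20.2% (13.4 to 28.5%), from 250 to 500 bp 17.0% (11.8 to 23.4%) and from 500 to 1000 bp 8.82% (5.54 to 13.2%). The first and last of these intervals do not overlap, while neighbouring ones do. The share with a score of 4 or more went from 36.3% in the nearest range to 13.9% in the farthest.

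Distance from coding genes also moved with calls and score. Peaks of 2 calls lay at a median of 10.9 kb from the nearest coding end, and those of 1 call at 25.8 kb. Over 100 kb from any coding end 7 of 128 peaks were of 2 calls (5.47%, interval 2.23 to 10.9%) and 3.12% scored 4 or more. At 1 to 2 kb 8 of 45 were of 2 calls (17.8%, interval 8.0 to 32.1%) and 48.9% scored 4 or more. The share of 2 calls in the ranges between was 23.3% (2 to 5 kb), 19.5% (5 to 20 kb) and 17.7% (20 to 100 kb). Of the 646 peaks 177 lay inside a coding gene (27.4%, interval 24.0 to 31.0%), against 38.2% of all nuclear peaks, with 19.8% of 2 calls inside and 15.1% outside. The part of nearby coding genes in the scores of these peaks was not tested beyond these counts.

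Of the 429 lncRNA peaks, 330 have a gene whose strand is known from the promoter table, and 226 of them (68.5%, interval 63.2 to 73.5%) lay nearer the 5′ end than the 3′ end. Among peaks of 2 calls 47 of 64 did (73.4%, interval 60.9 to 83.7%), and among peaks of 1 call 179 of 266 (67.3%, interval 61.3 to 72.9%). The share was 66.5% (59.5 to 73.0%) over the 200 peaks more than 5 kb from a coding end and outside coding genes. Scores of 4 or more were held by 35.0% (28.8 to 41.6%) of peaks nearer the 5′ end and 19.2% (12.2 to 28.1%) of those nearer the 3′ end, and these intervals do not overlap. The shares of 2 calls, 20.8% (15.7 to 26.7%) and 16.3% (9.82 to 24.9%), have overlapping intervals. Of the 226, 105 lay upstream of the start and 121 downstream.

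**Figure D3:**
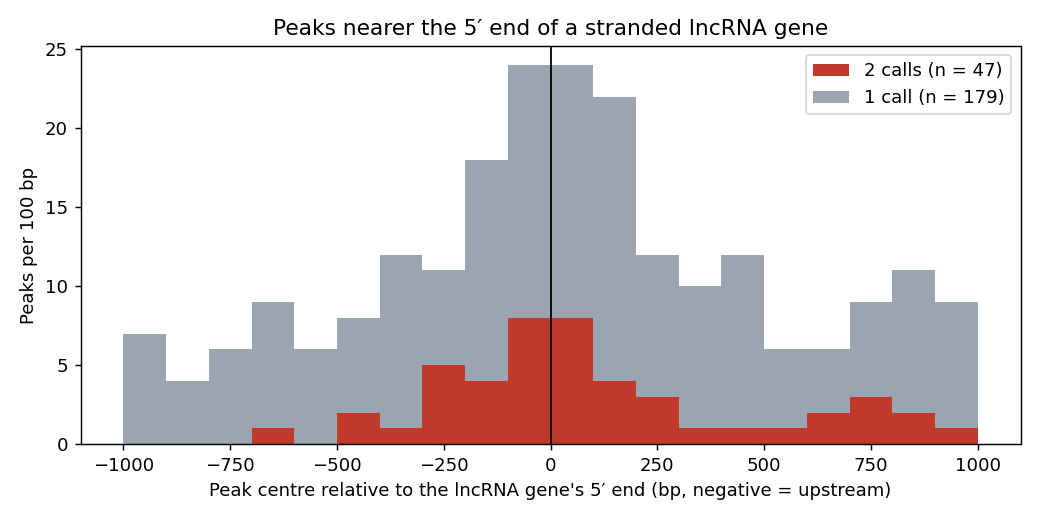
Bars count the 226 peaks nearer the 5′ end of a lncRNA gene of known strand, per 100 bp of peak centre position relative to that end (x axis, negative is upstream). Peaks of 2 calls (47, red) are stacked below those of 1 call (179, grey), and the counts are highest on either side of the 5′ end.

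The core letters ACGTG or CACGT were found in 21 of the 56 selected peaks that a RefSeq promoter window of 300 bases holds whole (37.5%, interval 24.9 to 51.5%). The windows run from 250 bases before to 50 after a gene's listed start, so these peaks are a subset near starts. A window can be that of a coding gene. This was so for the 2-call peaks at Gm32934, Gm4633, Gm46771, 6430590A07Rik, 2310068J16Rik, 2610017A05Rik and Gm6598. All of these but the peaks at 6430590A07Rik and 2610017A05Rik held the letters, so the shares are not those of noncoding promoters alone. The peaks at Gm46771 and 6430590A07Rik also lay whole in a window of the lncRNA gene itself. In peaks of 2 calls 12 of 17 held the letters (70.6%, interval 44.0 to 89.7%), and in peaks of 1 call 9 of 39 (23.1%, interval 11.1 to 39.3%). At coding ends the same shares were 45.0% (40.1 to 50.0%) of 400 peaks and 17.6% (14.9 to 20.7%) of 698. Stretches of 101 bases, the width of a 1-call peak, were taken 3 per window from all windows, and held the letters in 6.18% of 34764 stretches at lncRNA genes and 7.61% of 63789 at coding genes. Peaks of 2 calls are wider than such a stretch, up to 199 bp.

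CACGTG, a site shared with E-box factors that overlaps ACGTG on both strands, was present in 2 of the 56 (3.57%, interval 0.435 to 12.3%). It was in 7.56% of the promoter-window peaks at coding ends. Stretches held it in 1.99% at lncRNA genes and 2.69% at coding genes, and the interval covers all of these shares. Chaserr, printed above, has a peak of 2 calls without the core letters, which says only that the letters are not in this stretch. A match is a description of the letters, not a bound site.

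**Figure D4:**
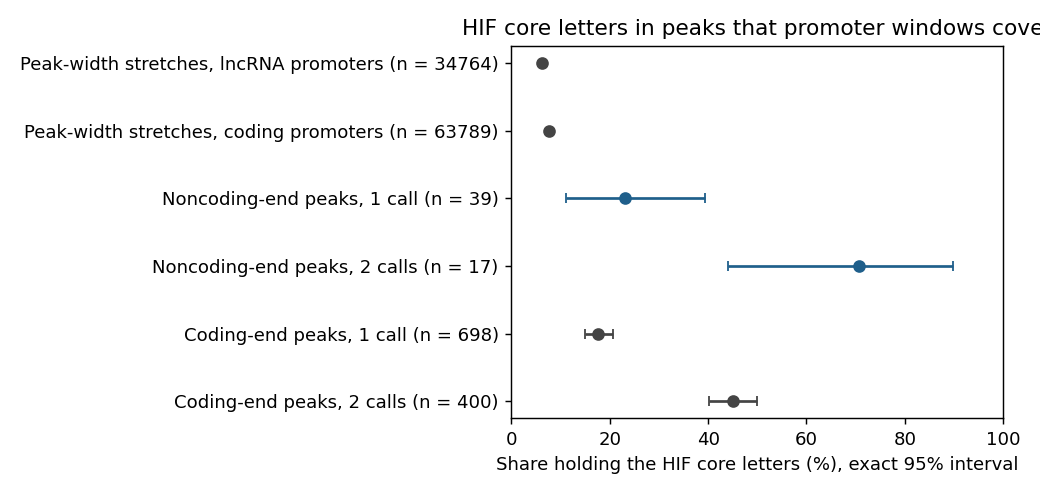
Points are the share (%, x axis) of promoter-window peaks or 101-base stretches that hold ACGTG or CACGT, with exact 95% intervals, for noncoding-end peaks (blue) and for coding-end peaks and stretches (grey). The 17 noncoding-end peaks of 2 calls had 70.6%, with the widest interval, and stretches of all lncRNA windows had 6.18%. Some of the 17 peaks lie in windows of coding genes.

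Base composition moved with the letters. The 69 lncRNA promoter windows that held the centre of a selected peak had a median GC content of 60.7% and 20 CpG dinucleotides, against 48.3% and 4 in all lncRNA windows, and 46.4% of them (interval 34.3 to 58.8%) held the letters against 17.4%. Among windows with at least 15 CpG, 23 of 41 with a selected peak held them (56.1%, interval 39.7 to 71.5%), against 341 of 1269 without a peak (26.9%, interval 24.4 to 29.4%). The median GC content was 64.7% with a selected peak and 66.0% without a peak, and the median CpG count was 27 and 26.

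The farthest selected peak from its noncoding end, at 4930487H11Rik, lay 994 bp away with score 3 and 1 call, and the nearest peak beyond 1 kb, at Gm5182, lay 1003 bp away with score 2 and 1 call. The selected peak nearest a coding end, at Gm42073, lay 1008 bp from Ublcp1 with score 2 and 2 calls. A peak at 1700012D01Rik, 1000 bp from Nab2 with score 4 and 1 call, was left out.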

How the data were processed

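The 646 peaks and the gene lists were chosen with earlier results of these data known. The authors aligned reads with Bowtie2 and used HOMER on mm10, per the submitters' processing notes. The deposited file is 1 merged peak list from 2 HIF1α pulldowns, each called against the same input, per the file headers. Its deposited score is a whole number set by the authors. The calling threshold is not given in the sources used here, nor is the merge rule. The last number of each peak name was taken to count its merged calls.

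Peak centres were placed against RefSeq genes of GRCm38.p6, the build of mm10, leaving out genes that start below 3 Mb on chromosomes other than Y. The gene table gives outer ends but not strand or exons, so positions are not resolved into exon or intron. Strand, listed starts and motif counts came from the promoter table, which covers part of the lncRNA and coding genes, and chromosome 18 was not used in these counts. Every biotype other than protein-coding was counted, and antisense RNA was counted with lncRNA. Each peak is named by its nearest noncoding end. Analysis used Python 3.11.15, pandas 2.3.3 and scipy 1.17.1, and placement was checked on simulated peaks.

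Genes named are those at the 20 highest-scoring peaks of 2 calls, up to 4 per biotype, the 5 highest-scoring peaks of 1 call, and up to 8 per list. Some of them, and the sequence of peaks outside promoter windows, are not reported here. Other names are marked in the text as chosen after their values were seen. Alternatives varied the windows, biotypes, score, calls, placement rule, joining of peaks and motif.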

Additional observations from a re-analysis of the deposited data

How the results depend on the processing

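The main counts were 646 peaks, 16.4% of 2 calls, 22.4% with a score of 4 or more and 27.4% inside a coding gene. No test was made, so no call could be lost, and the direction against the whole list (11.5 and 15.4%) was the same under the 500 bp, 2 kb and 5 kb settings, without pseudogenes, with given names alone, with any overlap and with joined peaks. With 500 bp in place of 1 kb for both the noncoding and the coding ends, 22.7% were of 2 calls and 30.3% scored 4 or more, and with 2 kb for both 17.6% scored 4 or more. More than 5 kb from coding ends, 18.8% scored 4 or more and 23.3% lay inside a coding gene. Without pseudogenes the shares of 2 calls and of score 4 or more were 20.3 and 27.3%, and with noncoding genes of given names alone (91 peaks) 19.8 and 27.5%. Among the 384 peaks with a score of at least 3 they were 26.8 and 37.8%, with 33.1% inside a coding gene. Of the 106 peaks of 2 calls, 73.6% scored 4 or more and 33.0% lay inside a coding gene. Both of these settings filter on score or calls, and the whole list was not filtered in the same way. The whole-list shares of 11.5 and 15.4% are therefore no comparison for them, and no direction is read from them. Leaving out the peaks within 1 kb of a listed coding start, a setting chosen after seeing the data, gave 22.9% inside a coding gene. Per gene, peaks of 2 calls alone gave 0.424% of all noncoding genes, 0.727% of lncRNA, 0.0476% of pseudogene, 0.407% of miRNA, 0.903% of snRNA, 0% of snoRNA and 1.24% of tRNA genes. A window of 500 bp gave 1.61% of all, 2.32% of lncRNA, 0.79% of pseudogene and 0.301% of snoRNA genes, and 2 kb gave 3.58, 4.8, 2.65 and 1.5%. Counting GCGTG beside ACGTG, 53.6% of the promoter-window peaks held a core, against 50.5% of promoter-window peaks at coding ends. Stretches of all windows held such a core in 13.6% at lncRNA genes and 22.2% at coding genes. The core share was 76.5% (interval 50.1 to 93.2%) in selected peaks of 2 calls and 43.6% (27.8 to 60.4%) in those of 1 call. These intervals overlap, whereas those for ACGTG alone did not. Of the promoter-window peaks of 2 calls, 70.6% held ACGTG. No paired analysis was possible because the result comes from no test and the list holds no value per replicate. For the same reason no replicate could be left out. The list gives no depth.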

Other observations

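Some peaks lay near both kinds of gene end and so were not selected. Of peaks within 1 kb of a noncoding end, 434 also lay within 1 kb of a coding end, and 156 of them (35.9%) were of 2 calls. Chromosome X held 15 of the 646 selected peaks, 2 of them of 2 calls, and chromosome Y held 0. Of the 646, 118 lay within 5 kb of a coding end and 268 were centred inside their nearest noncoding gene.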
